A study of Mus musculus with 13 samples.

Results

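The synaptic vesicle and release machinery was followed as a set of 33 genes, taken by gene symbol with every probe set that carries the symbol. All 33 genes were on the array, with 88 probe sets, among 18193 genes with a symbol. Expression was measured in 13 mice, 1 array and 1 mouse per sample, and all samples were untreated. The first group held 6 primary medulloblastomas, tumours of the cerebellum and hindbrain. Their genotype was Ptch1(+/-), heterozygous for an inactivated hedgehog receptor gene Ptch1. The second group held 3 wildtype samples labelled as granule neuron precursors (GNPC) at P7, the first week after birth. Such precursors are dividing cells of the young cerebellum. The third group held 4 wildtype samples of dorsal brainstem (DBS) taken before birth, at E16.5. The labels give no strain or sex, no age for the tumour mice, no way in which the GNPC cells were separated, and no account of which part of Ptch1 is missing. Age goes with tissue in the normal samples, so the 2 cannot be told apart.

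Neurons store transmitter in small vesicles at the nerve terminal and release it when calcium enters. SNARE proteins on the vesicle (Vamp1, Vamp2) and on the plasma membrane (Snap25, Stx1a) zip together and fuse the membranes. Synaptotagmins sense the calcium, complexins hold and time the fusion, and the scaffold of the active zone keeps primed vesicles in place. Synapsins tether the reserve vesicles, and dynamin recovers membrane after release. In the developing hindbrain these genes are switched on as neurons leave the cell cycle and make contacts, so they are widely used as signs of neuronal maturation.

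The 13 arrays had medians of 91.3 to 117.5 intensity units, and with 3 to 6 arrays a group their number sets the precision. A gene was read from its brightest probe set by mean, among those above their own array's median in 3 or more arrays, which left 12270 genes. Of the members 32 passed, and 28 of these were above the array median in all 13 samples. The probe sets of Syt2, Syt5, Syt7 and Unc13a were below the median in at least 1 tumour, and that of Syt5 in all tumours. Sv2c, a vesicle glycoprotein, did not pass: it reached 104.4 units at most, in DBS, and 35.3 and 29.2 in the brightest tumour and GNPC sample. The labelled tissues were checked against marker genes. Atoh1, the transcription factor of granule neuron precursors, was 6383.3 to 11733.4 in tumours, 825.7 to 1251.8 in GNPC and 56.1 to 166.5 in DBS. Of its list of 9 precursor genes, 3 were higher, 1 lower and 5 not called in tumours against GNPC. Over all genes 6.59% were called higher and 14.2% lower there. Against DBS 8 were higher and 1 not called, where 15.5% of all genes were called higher and 20.9% lower. Zic2, Gli1 and Mfap4 were above the array median in no DBS sample, so the filter favoured their direction against DBS. Mfap4, the gene that was lower against GNPC, was 234.9 to 537.4 in tumours, 890.6 to 1662.8 in GNPC and 3.3 to 7.1 in DBS. Several markers of other cell types were high in GNPC. Calb1, a Purkinje cell calcium-binding protein, was 32.5 to 3812.1 in tumours, 13398.9 to 16138.8 in GNPC and 2029.6 to 2496.6 in DBS. Foxp2 of the same list went the other way, at 819.9 to 1346.9 in tumours, 411.8 to 740.5 in GNPC and 756.5 to 1223.5 in DBS. In GNPC the GABAergic marker Gad1 was 7643.2 to 9017.2. The oligodendrocyte marker Mbp was 12743 to 20462.9 there, while Sox10 of the same list was 208.9 to 365.7. By these markers the GNPC samples were not precursors alone, and what other cells add to the member values was not tested. In DBS the glycine transporter Slc6a5 of brainstem neurons was 2947.9 to 3825.5, while Chat, the enzyme of cholinergic neurons, was below the array median in every sample. Tumour 2 stood above the other tumours in Purkinje, GABAergic and granule neuron markers, and by mean log2 value also in astrocyte and oligodendrocyte markers. Tumour 3 was often the lowest for the members. Counts without each of these 2 tumours are given beside the results.

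Most of the release machinery was lower in the tumours than in either normal tissue. Differences are of log2(intensity + 18), a scale that understates the change of dim genes, and a gene was called at a limma adjusted p under 0.05 with at least a 2-fold difference. Against GNPC, 25 of 32 members fell, none rose and 7 were not called; over all genes tested 14.2% were called lower and 6.59% higher. With arrays scaled to the same median 1374 genes were called lower and 1309 higher. The median log2 difference was -1.58 over the members and -0.03 over all genes. Against DBS, 25 members fell, none rose and 7 were not called, where 20.9% of all genes were called lower and 15.5% higher. Here the median was -2.15 over the members and 0.00 over all genes. Both comparisons use the same 6 tumour arrays, so they are not independent of each other. These are bulk samples, in which fewer neurons and less RNA per neuron cannot be told apart.

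The values of tumours and GNPC did not overlap for 27 members, all with the tumours lower; over all genes 44.9% did not overlap, 24% with the tumours lower. Tumours and DBS also did not overlap for 27 members, all with the tumours lower, against 56.1% of all genes and 28.9% with the tumours lower. Without tumour 2 the number of members called lower against GNPC was 26, and without tumour 3 it was 23. Against DBS it was 25 whichever sample was left out. By group means, 26 members were lowest in tumours, intermediate in GNPC and highest in DBS, an order held by 29.3% of all genes. The other members were Syp, Synpr, Unc13a and Unc13c, lowest in tumours and highest in GNPC, and Sv2b and Cplx2, lowest in DBS and highest in GNPC.

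**Figure D1:**
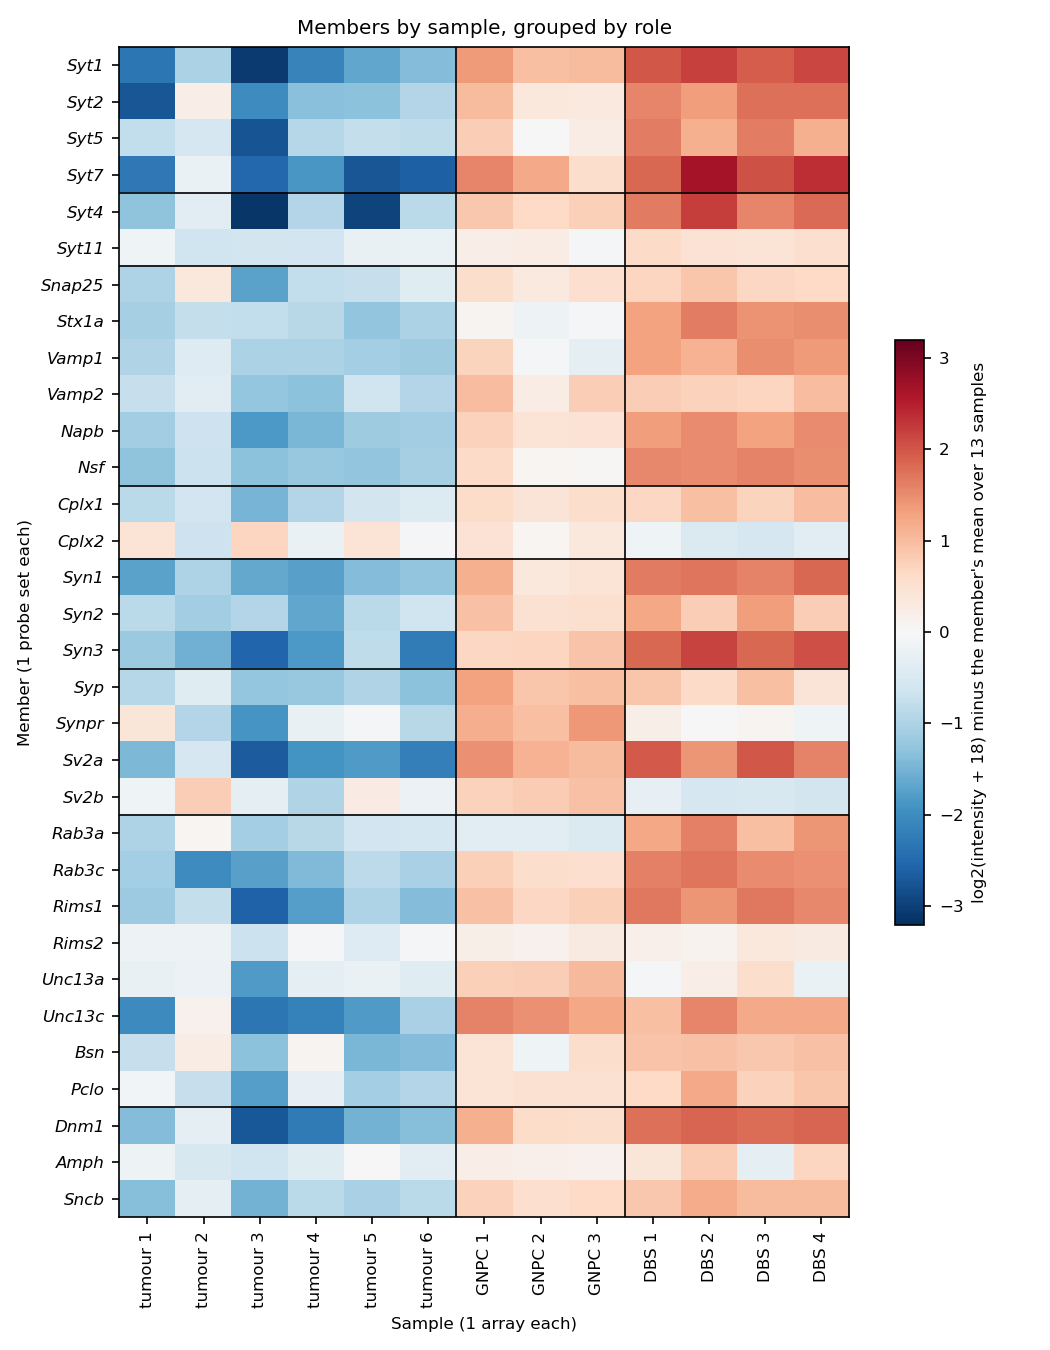
Each row is a member with its 1 probe set, in blocks by role, and each column a sample; colour gives log2(intensity + 18) minus the member's mean over 13 samples, red above and blue below. The tumour columns are mostly blue and the DBS columns mostly red, with Cplx2, Sv2b and Synpr among the exceptions in DBS, and tumour 3 is the darkest tumour column.

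**Figure D2:**
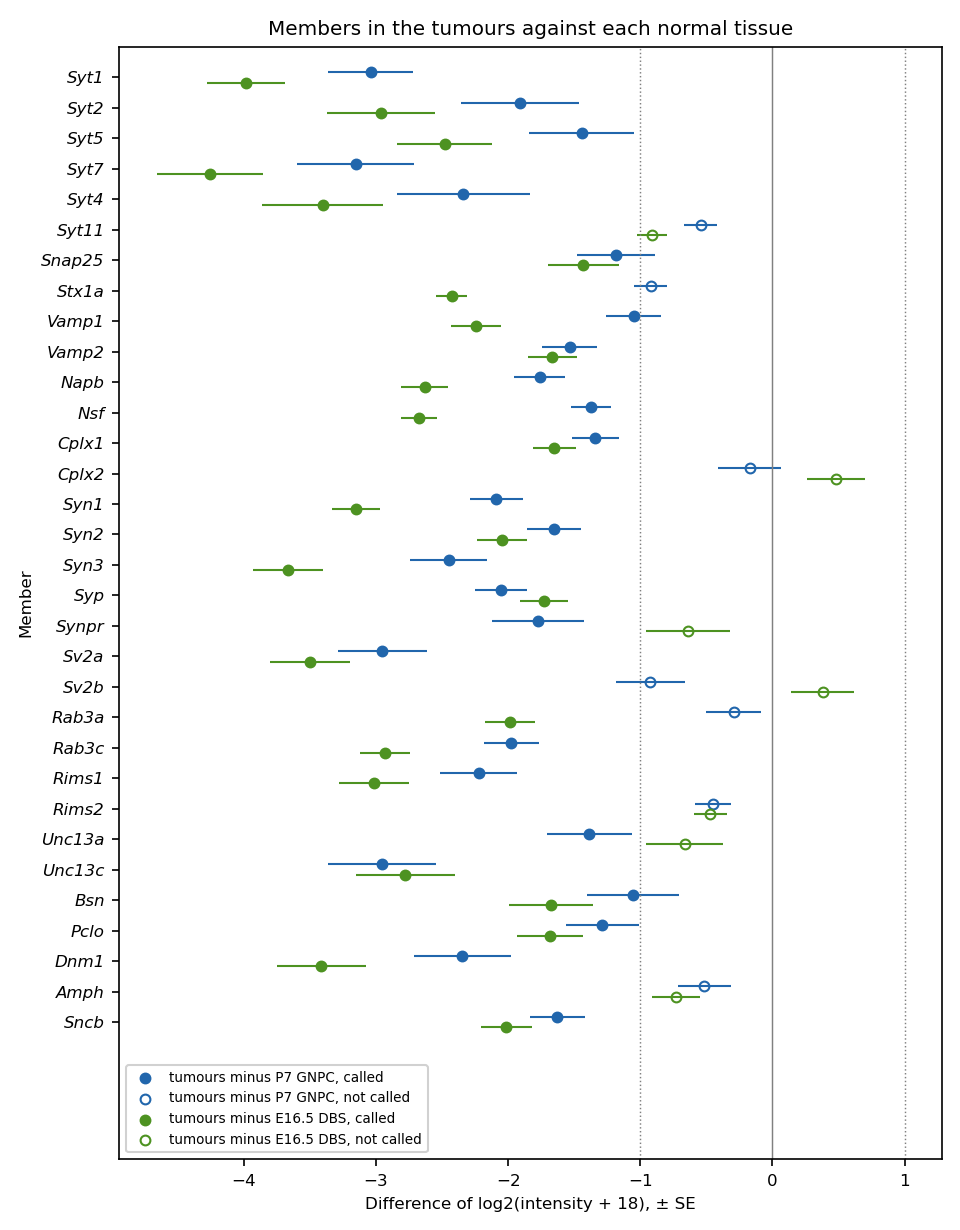
Each row is a member; points give the difference in log2(intensity + 18) of tumours minus GNPC (blue) and tumours minus DBS (green) with its SE, filled where called, and dotted lines mark the 2-fold minimum. In each comparison 25 points are filled, all to the left of 0.

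Promoter sequence was available for 26 of the 33 members, with 34 windows of 300 bases from RefSeq (GRCm38.p6), 250 before to 50 after each start. Windows were searched on both strands for TTCAGCACC and GGACAGCGC, the left and right arms of the RE1 element that the repressor REST binds in many neuronal genes, for the cAMP response element TGACGTCA, and for the GC box GGGCGG. Matches of different motifs did not overlap in the sequences shown. The left RE1 arm was in 2 member windows (5.88%), those of Syn1 and Unc13a, and in 0.371% of all 32851 windows. The right arm was in 1 member window (2.94%), that of Unc13a, and in 0.405% of all windows. The cAMP response element was in the Syn1 window alone among members (2.94%, against 1.79% of all windows), and the GC box in 21 (61.8%) against 35.7%. Shown are the 250 bases before the start of Syn1 (chrX:20920919-20921168, minus strand), Syp (chrX:7638330-7638579, plus strand) and Cplx2 (chr13:54302306-54302555, plus strand), on the gene's own strand. They were chosen as a synapsin and a vesicle membrane gene that fell in the tumours and a complexin that was not called. The stretch of Unc13a from base 6 to base 31 after the start (chr8:71671727-71671752, minus strand) is shown because it holds both arms. Capitals mark the motif letters: in Syn1 the left RE1 arm and the cAMP response element, in Syp a pair of GC boxes, in Cplx2 no match, and in Unc13a the right and then the left arm as read on the opposite strand.
Syn1: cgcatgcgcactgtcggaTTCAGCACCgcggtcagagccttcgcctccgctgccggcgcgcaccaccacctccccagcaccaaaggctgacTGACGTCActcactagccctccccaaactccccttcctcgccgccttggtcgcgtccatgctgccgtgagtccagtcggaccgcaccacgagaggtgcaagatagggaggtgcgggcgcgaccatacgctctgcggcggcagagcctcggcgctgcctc
Syp: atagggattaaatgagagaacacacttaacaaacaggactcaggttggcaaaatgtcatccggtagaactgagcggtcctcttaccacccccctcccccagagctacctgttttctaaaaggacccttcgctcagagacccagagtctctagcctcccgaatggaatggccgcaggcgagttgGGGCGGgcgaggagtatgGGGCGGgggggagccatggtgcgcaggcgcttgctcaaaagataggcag
Cplx2: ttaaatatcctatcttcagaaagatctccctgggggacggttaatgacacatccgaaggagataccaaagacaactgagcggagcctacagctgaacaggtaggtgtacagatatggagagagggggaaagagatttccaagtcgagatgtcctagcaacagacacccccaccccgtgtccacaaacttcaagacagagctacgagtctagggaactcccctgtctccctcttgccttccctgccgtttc
Unc13a: GCGCTGTCCgcgcccccGGTGCTGAA
In Syn1 the RE1 arm lies 232 to 224 bases before the start and the cAMP response element 159 to 152 bases before it. A match of letters is no measured binding site, and a window without one says only that these letters are not in it.

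The calcium sensors Syt1, Syt2, Syt5 and Syt7 all fell in the tumours in both comparisons. Syt7, the slow, high-affinity sensor, was 80.4 to 550.5 in tumours (median 107.8). It was 1950.6, 1516.5 and 958.7 in GNPC, and 2338.2, 4142.1, 2688 and 3372.4 in DBS. Tumour 2 had the highest tumour value, and no tumour reached any normal sample. Its log2 difference was -3.15 ± 0.44 (SE) against GNPC (8.91-fold lower, adjusted p = 4.86e-05) and -4.26 ± 0.40 against DBS (19.1-fold, adjusted p = 2.46e-07), the largest among members. Syt1, the fast sensor of synchronous release, was 207.8 to 917.4 in tumours (median 490.5). Its GNPC values were 4810.3, 3617 and 3798.4, and its DBS values 7390.3, 8479.8, 7209.7 and 8205.6. The groups were far apart, with differences of -3.04 ± 0.32 against GNPC and -3.99 ± 0.29 against DBS. Syt2, the fast sensor common in the hindbrain, averaged 137 ± 115.4 in tumours, 471 ± 145.3 in GNPC and 974 ± 134.0 in DBS (SD, n = 6, 3 and 4). Syt5 averaged 57.3 ± 27.5 in tumours, 172 ± 53.1 in GNPC and 367 ± 75.1 in DBS, with tumour 3 at 3.4. Both were called in both tumour comparisons, with Syt2 at -1.91 ± 0.45 and -2.96 ± 0.41 against GNPC and DBS, and Syt5 at -1.44 ± 0.40 and -2.48 ± 0.36. Syt5 was below the array median in every tumour and passed the filter only through the normal tissues, and with a pseudocount of 64 its difference from GNPC was -0.98 and not called.

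Of the other 2 synaptotagmins, Syt4 fell and Syt11 was not called. Syt4, which lacks the usual calcium binding of the family and is found on dense-core vesicles, was 172.4 to 1270.2 in tumours (median 745.5), 2519.4 to 2967.4 in GNPC and 4842.2 to 7614.3 in DBS. Tumours 3 and 5 were the lowest, at 172.4 and 190.9. Its differences were -2.34 ± 0.50 against GNPC (adjusted p = 0.00142) and -3.40 ± 0.46 against DBS (adjusted p = 9.69e-06). Its other probe set, 1415844_at, gave -1.12 against GNPC (adjusted p = 0.0714, not called) and -2.08 against DBS, called. Syt11, a member that binds no calcium and acts in vesicle trafficking, was 3296.5 to 4613.2 in tumours, 4976.1 to 6041.3 in GNPC and 6857.3 to 7795 in DBS. The groups did not overlap, but its differences of -0.54 ± 0.12 and -0.91 ± 0.11 (adjusted p = 0.00222 against GNPC and 4.15e-06 against DBS) were under the 2-fold minimum.

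Among the SNAREs and the proteins that recycle them, 5 of 6 fell against GNPC and 6 of 6 against DBS. Nsf, the ATPase that takes spent SNARE complexes apart, was 1047.6 to 1643.5 in tumours (median 1105.4). It was 4049.4, 2760.4 and 2686.5 in GNPC, and 7759.8, 7627.3, 7960.8 and 7379.7 in DBS. On this probe set the 3 groups did not overlap, and tumours differed by -1.38 ± 0.15 from GNPC and by -2.67 ± 0.14 from DBS. A dimmer one, 1457205_at, gave -0.66 and -0.21, neither called. Napb, the adaptor that brings Nsf to the complex, was 583 ± 161.8 in tumours, 1965 ± 237 in GNPC and 3605 ± 296 in DBS, with differences of -1.76 ± 0.19 and -2.63 ± 0.18. Stx1a, the plasma membrane syntaxin, was 656.3 to 947.9 in tumours (median 827.3), 1436.3 to 1715.9 in GNPC and 3980 to 5036.9 in DBS. It was the member of this group that was not called against GNPC: the groups did not overlap (-0.92 ± 0.13, adjusted p = 4.21e-05), but the difference was under 2-fold, while against DBS it was -2.43 ± 0.12. Its other probe set, 1448366_at, was called lower against GNPC (-1.52, adjusted p = 0.00315), as was the mean of both (-1.22).

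Snap25, the plasma membrane partner of Stx1a, was 2027.3 to 8547.1 in tumours (median 3961.7), 8352.9 to 9911 in GNPC and 10426.1 to 12538.8 in DBS. Tumour 2 lay within the GNPC range. The difference from GNPC was -1.18 ± 0.29 (adjusted p = 0.00414), and without tumour 3 it was -0.98 and no longer called; with arrays scaled to the same median it was -0.94 and with the mean of its probe sets -0.75, also not called. Vamp1 and Vamp2, the vesicle SNAREs, differed from GNPC by -1.05 ± 0.21 and -1.54 ± 0.21, and from DBS by -2.24 ± 0.19 and -1.66 ± 0.19. Vamp1 averaged 207 ± 46.0 in tumours, 463 ± 186.9 in GNPC and 1037 ± 118 in DBS. Without GNPC 1, which had 676.4, the Vamp1 difference from GNPC was -0.75 and not called. The call was also lost with arrays scaled to the same median (-0.82), quantile normalization (-0.88), a pseudocount of 64 (-0.92) and a covariate for RNA quality (-0.997).

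Of the 2 complexins, Cplx1 fell in both comparisons and Cplx2 in neither. Cplx1 was 2556 to 5286.7 in tumours (median 4294.3), 9619.7 to 10777.6 in GNPC and 11435 to 14323 in DBS, with differences of -1.34 ± 0.18 and -1.65 ± 0.16. Cplx2, whose promoter window held none of the motifs, was 833.7 to 2143.5 in tumours (median 1557.3), 1382 to 1845 in GNPC and 921.3 to 1220.1 in DBS. The tumour range spanned all GNPC values. The differences of -0.17 ± 0.24 from GNPC (adjusted p = 0.572) and 0.48 ± 0.22 from DBS (adjusted p = 0.0616) were not called. The sign against GNPC depended on the scaling, at 0.07 with arrays scaled to the same median.

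All 3 synapsins, the phosphoproteins that hold the reserve pool, fell in both comparisons. Syn3, the synapsin that is most prominent early in development, was 131.3 to 473.4 in tumours (median 249.8). It was 1354.7, 1364.9 and 1619.4 in GNPC, and 3055.9, 3816.8, 3053.9 and 3611 in DBS. The 3 groups did not overlap, and the differences were -2.45 ± 0.29 from GNPC (adjusted p = 1.17e-05) and -3.67 ± 0.26 from DBS (adjusted p = 1.4e-08). Syn1, whose window held the left RE1 arm, was 136.5 to 242.2 in tumours (median 161.8), 630.1 to 1117 in GNPC and 1534 to 1817.6 in DBS. Its differences were -2.09 ± 0.20 and -3.15 ± 0.18. Syn2 averaged 837 ± 188.0 in tumours, 2636 ± 481 in GNPC and 3486 ± 717 in DBS, with differences of -1.65 ± 0.20 and -2.05 ± 0.19.

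Of the 4 vesicle membrane proteins tested, 3 fell against GNPC and 2 against DBS. Sv2a, the glycoprotein to which the antiepileptic drug levetiracetam binds, was 107.6 to 535.5 in tumours (median 201.8). It was 2167.6, 1715.1 and 1585.7 in GNPC, and 3092.3, 2121.9, 3167.4 and 2372.7 in DBS. No tumour came near a normal sample, with differences of -2.95 ± 0.34 from GNPC (7.74-fold lower) and -3.50 ± 0.31 from DBS (11.3-fold lower). Syp, the abundant vesicle protein synaptophysin, was 372 to 725.7 in tumours, 1782.1 to 2355.8 in GNPC and 1270.7 to 1877 in DBS. Its differences were -2.06 ± 0.20 from GNPC and -1.73 ± 0.18 from DBS. Synpr, its relative synaptoporin, was called against GNPC and not against DBS: it was 442.6 to 2182.5 in tumours (median 1148), 3280.8 to 4409.3 in GNPC and 1509.2 to 1902.9 in DBS, and tumour 1 was above every DBS sample. The differences were -1.78 ± 0.35 (adjusted p = 0.000746) and -0.64 ± 0.32 (adjusted p = 0.086). The gap between these 2 is the difference of GNPC from DBS, which was itself called (1.14 ± 0.38, adjusted p = 0.0242).

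Sv2b, a paralogue of Sv2a, was not called in either tumour comparison. It was 519.2 to 1777.3 in tumours (median 910.1), 1713.8 to 1972.9 in GNPC and 674.4 to 850.3 in DBS. Tumour 2 lay within the GNPC range, and tumour 4 was below every DBS sample. The differences were -0.92 ± 0.26 from GNPC (adjusted p = 0.0093) and 0.38 ± 0.24 from DBS (adjusted p = 0.169). Without tumour 2 the difference from GNPC was -1.10 and passed. Sv2c, left out by the filter, differed by -0.35 from GNPC (adjusted p = 0.39) and by -1.64 from DBS (adjusted p = 5.33e-05) in a fit without the filter.

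At the active zone, where primed vesicles wait, 6 of 8 members fell in each comparison. Unc13c, a priming factor found mainly in the cerebellum, was 205.3 to 1217.1 in tumours (median 277.5). It was 3307.6, 3024.7 and 2587.4 in GNPC, and 2163.8, 3293.3, 2567 and 2551.2 in DBS. Tumour 2 was again the highest tumour, and the 2 normal tissues overlapped. The differences were -2.96 ± 0.41 from GNPC and -2.78 ± 0.37 from DBS. Rims1, the scaffold that links vesicles to calcium channels, was 161.7 to 614.2 in tumours (median 429.9), 1676.3 to 2030 in GNPC and 2864.8 to 3428.8 in DBS, with differences of -2.22 ± 0.29 and -3.02 ± 0.27. Its paralogue Rims2 was 1187.1 to 1869.3 in tumours, 2095.5 to 2349 in GNPC and 2067.2 to 2432.2 in DBS. The tumours lay below all normal samples, but by -0.45 ± 0.14 and -0.47 ± 0.12, which is under 2-fold.

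Unc13a, the main priming factor of forebrain synapses and the gene with both RE1 arms after its start, was called against GNPC and not against DBS. It was 27.8 to 123.5 in tumours (median 116.9), 257.1, 261.2 and 311.8 in GNPC, and 140.4, 170.3, 222.6 and 122.6 in DBS. The differences were -1.38 ± 0.32 (adjusted p = 0.00238) and -0.66 ± 0.29 (adjusted p = 0.0536), and the gap between them, GNPC minus DBS, was not called (0.72 ± 0.34, adjusted p = 0.103). Of the large scaffold proteins, Pclo was 547.9 to 1793.6 in tumours, 2597.2 to 2690.1 in GNPC and 2995.4 to 4434.6 in DBS, and fell by 1.29 and 1.68 on the log2 scale. Bsn was 104.8 to 380.9 in tumours (median 150.5), 290 to 481.9 in GNPC and 599.3 to 631.9 in DBS. Tumours 2 and 4 lay within the GNPC range, at 380.9 and 340.7. The difference of -1.05 ± 0.35 from GNPC (adjusted p = 0.0213) was no longer called without tumour 3, 5 or 6 (-0.94, -0.91 and -0.93) or without GNPC 1 or 3 (-0.98 and -0.92). It was also lost with arrays scaled to the same median (-0.83), quantile normalization (-0.86), a pseudocount of 64 (-0.89) and the 2 groups alone (adjusted p = 0.0514). From DBS the difference was -1.68 ± 0.32.

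The small GTPases Rab3a and Rab3c tie vesicles to the Rim scaffold. Rab3c was 483.9 to 1121.2 in tumours (median 836.9), 2913.3 to 3423.1 in GNPC and 5617.3 to 6600.6 in DBS, with differences of -1.97 ± 0.21 and -2.93 ± 0.19. Both calls were lost with the mean of its probe sets (-0.85 and -0.57), and against DBS its other 3 passing probe sets gave 0.55, 0.10 and 0.01. Rab3a was 2510.4 to 5658.7 in tumours (median 3228.2), 4203.1, 4269.8 and 3902.8 in GNPC, and 12810.5, 16420.1, 10459.3 and 14410.5 in DBS. Tumour 2 was above all GNPC samples, and DBS stood clear of both. The differences were -0.29 ± 0.21 from GNPC (adjusted p = 0.259) and -1.98 ± 0.19 from DBS (adjusted p = 2.78e-07), from a probe set that a second one contradicts, as described for the probe sets.

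Of the endocytic and remaining members, Dnm1 and Sncb fell in both comparisons and Amph in neither. Dnm1, the neuronal dynamin that cuts vesicles from the membrane, was 136 to 801.4 in tumours (median 355.3). It was 2202.3, 1501.4 and 1471.5 in GNPC, and 3454.9, 3643.6, 3511.3 and 3671.9 in DBS. The 3 groups did not overlap, and the differences were -2.35 ± 0.37 and -3.41 ± 0.34. Sncb, the presynaptic protein beta-synuclein, averaged 197 ± 66.1 in tumours, 622.5 ± 43.4 in GNPC and 821 ± 82.2 in DBS, with differences of -1.63 ± 0.21 and -2.01 ± 0.19. Amph, which recruits dynamin, was 2654.3 to 4102.1 in tumours, 4559.1 to 4742.4 in GNPC and 3291.7 to 7186 in DBS. Its differences of -0.51 ± 0.20 and -0.73 ± 0.18 were under 2-fold, and its DBS samples spread more than its tumours.

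**Figure D3:**
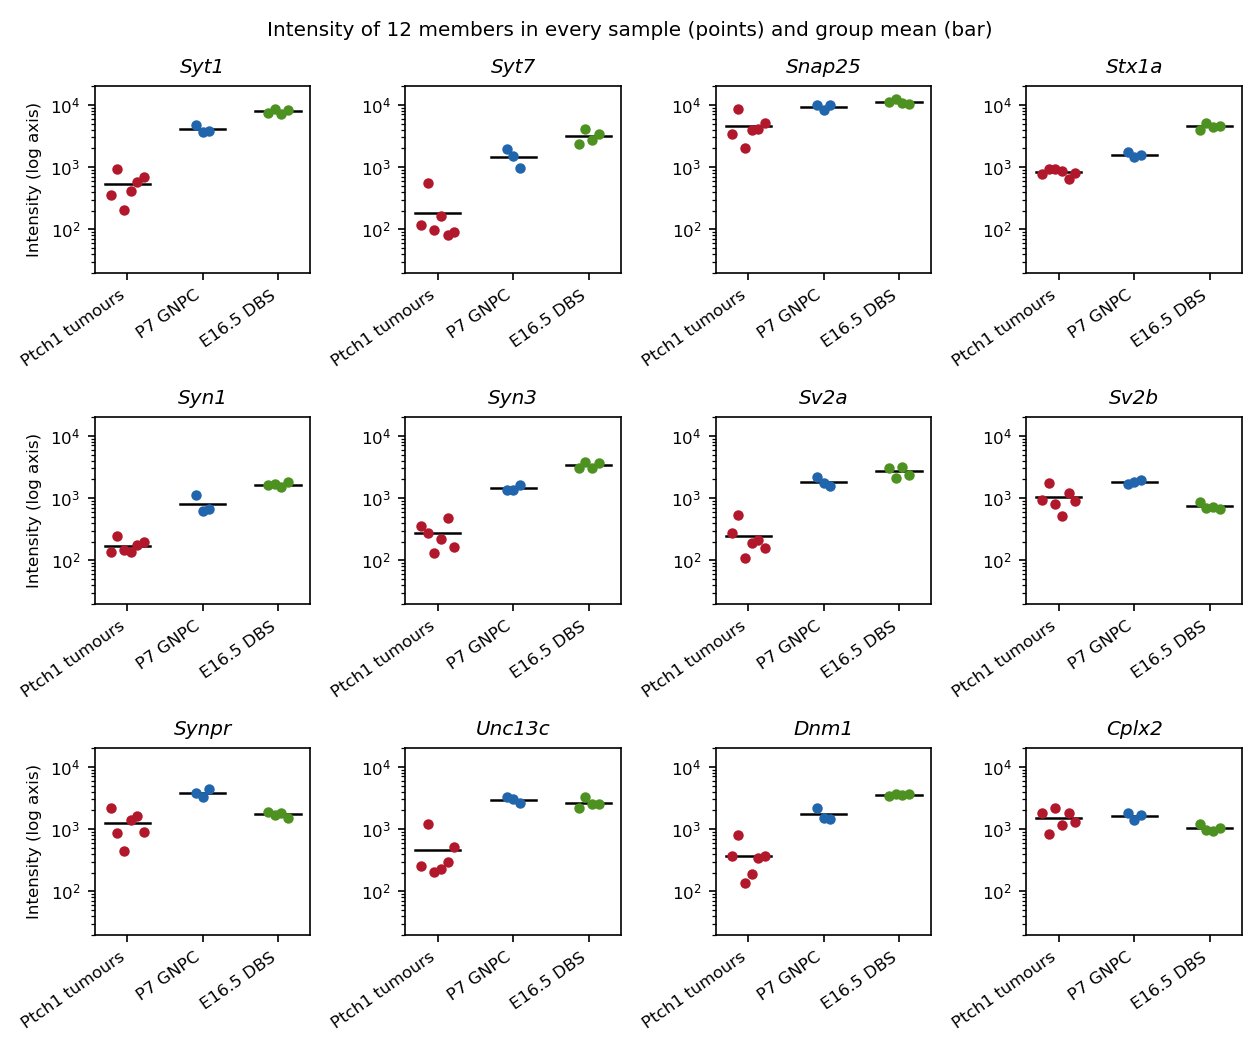
Points are the intensity of each sample on a log axis for 12 members, with tumours, GNPC and DBS from left to right and a bar at the group mean. For Syt1, Syt7, Stx1a, Syn1, Syn3, Sv2a, Unc13c and Dnm1 no tumour reaches a normal sample, while for Snap25 and Sv2b tumour 2 lies within the GNPC values and for Cplx2 the tumours span them.

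Between the normal tissues the set moved less. In GNPC against DBS, 7 members were lower (Stx1a, Vamp1, Nsf, Syn1, Syn3, Rab3a and Dnm1), 2 were higher (Synpr and Sv2b) and 23 were not called. Over all genes 9.68% were called lower and 8.73% higher, so the higher count of 2 in 32 is near the background. With arrays scaled to the same median 1397 genes were called lower and 850 higher. The median log2 difference was -0.58 over the members and 0.04 over all genes. The values did not overlap for 25 members, 21 of them with GNPC lower, where 55.9% of all genes did not overlap and 27.3% had GNPC lower. On the brightest probe sets the largest decreases were those of Rab3a (-1.69 ± 0.22, adjusted p = 3.6e-05) and Stx1a (-1.51 ± 0.14, adjusted p = 1.22e-06), but their other probe sets gave -0.01 and -0.61, neither called. Pclo, not called on its brightest probe set, differed by -1.97 and -2.20 on a pair of others, both called. Sv2b was 1.30 ± 0.28 higher (adjusted p = 0.00192) and Synpr 1.14 ± 0.38 (adjusted p = 0.0242).

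On their brightest probe sets the calcium sensors and Syt4 were not called in this comparison. They lay between -1.10 and -0.95 on the log2 scale, with adjusted p of 0.0386 to 0.125 and GNPC below DBS in every sample for each. Other probe sets differed: those of Syt1 gave 0.39, -0.01 and -0.16, and Syt2 probe set 1420418_at was called higher in GNPC (1.71). Syt7 probe set 1439633_at was called lower (-1.19), and the other Syt4 probe set gave -0.95, not called. The count of 7 lower members depended on the setting. It was 4 without GNPC 3, 9 without tumour 2, 11 with arrays scaled to the same median, 11 in a fit of the 2 normal tissues alone and 2 without probe sets that can match several transcripts. Dnm1 (-1.07 ± 0.40, adjusted p = 0.041) lost its call in each fit without GNPC 2, GNPC 3 or any 1 DBS sample. Syn1 lost it without GNPC 2 or 3, Vamp1 without GNPC 3, and Synpr without GNPC 1, GNPC 3 or DBS 4. With the RNA quality covariate Syn3, Synpr and Dnm1 were not called, and with the mean of probe sets Nsf and Rab3a were not. Without tumour 2, which enters this comparison only through the shared estimate of the spread, Syt2 and Syt7 were called.

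The tumours differed among themselves more in these genes than in most. The median SD of log2 values over the members was 0.54 in tumours, 0.17 in GNPC and 0.15 in DBS; over all genes it was 0.27, 0.15 and 0.21. Tumour 2 was the highest of the 6 tumours for 22 of 32 members, where it was the highest for 21.6% of all genes. Tumour 3 was the lowest for 19 members, where it was the lowest for 21% of all genes. The mean log2 value over the members was 9.75 in tumour 2, 8.60 in tumour 3 and 9.12 to 9.26 in the other tumours. All GNPC samples (10.70 to 11.01) and DBS samples (11.31 to 11.38) were higher. Against that order, tumour 2 was the lowest for Syt11, Cplx2 and Rab3c, and tumour 3 the highest for Cplx2.

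Several marker lists moved with the members and others did not, and their part in the differences was not tested. Beside their counts, 14.2% of all genes were called lower and 6.59% higher against GNPC, and 20.9% and 15.5% against DBS. Of 13 neuronal cytoskeleton and pan-neuronal genes, which include no vesicle gene, 5 fell against GNPC and 10 against DBS, and none rose. Their summed intensity was 29630 to 52454 in tumours, 75990 to 84425 in GNPC and 132218 to 153104 in DBS. Nefh was above the array median in no tumour and passed the filter only through the normal tissues, which fixed its direction in advance. Of 9 Purkinje cell genes, 7 fell against GNPC, and against DBS 3 fell and 1 rose. Their sum was 3386 to 15796 in tumours, 44908 to 54378 in GNPC and 12618 to 13880 in DBS. Pcp2 and Ppp1r17 were above the array median in no DBS sample, so the filter favoured their direction against DBS. Of 4 markers of GABAergic interneurons, 3 fell in each comparison and 1, Pvalb, rose against DBS, with sums of 305 to 7120 in tumours, 12256 to 16787 in GNPC and 11374 to 13108 in DBS. By mean log2 value tumour 2 was the highest tumour for these 3 lists, though by summed intensity tumour 5 (52454) was above tumour 2 (42912) for the pan-neuronal genes, and tumour 1, not tumour 3, was the lowest for Purkinje and GABAergic markers. In tumour 1 the Purkinje genes were uneven: Calb1 was 32.5 and Pcp2 10.2, both below the array median, while Foxp2 was 1346.9, the highest of the tumours, Gria3 899.9 and Pcp4 510.2.

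Differentiated granule neuron markers fell in 5 of 8 cases against GNPC, where none rose, and against DBS 3 fell and 2 rose. They summed to 3949 to 16145 in tumours, 23291 to 25632 in GNPC and 10177 to 14160 in DBS. Gabra6, Cbln3 and Grin2c were above the array median in no DBS sample, so the filter favoured their direction against DBS. All 9 brainstem transmitter and region genes fell against DBS (1271 to 3794 in tumours and 32070 to 43125 in DBS), with Slc6a5, Prph, Glra1, Hoxa5, Hoxb5 and Hoxc4 below the array median in every tumour. All 9 were also lower in GNPC than in DBS. Of these, Prph, Glra1, Hoxa5, Hoxb5 and Hoxc4 were above the array median in no tumour or GNPC sample. They passed the filter only through DBS, which fixed their direction against it in advance. Cell cycle genes ran the other way, with 8 of 9 higher against GNPC and 9 of 9 against DBS: they summed to 51139 to 64154 in tumours, 23145 to 30410 in GNPC and 4657 to 7480 in DBS. Among them Cdc6 was above the array median in no DBS sample, so the filter favoured its direction against DBS. Of 9 microglia and macrophage genes, 7 rose in each tumour comparison (7376 to 22415 in tumours, 5074 to 6236 in GNPC and 4998 to 5230 in DBS). H2-Aa of this list was above the array median in no GNPC or DBS sample. It passed the filter only through the tumours, which fixed its direction in advance. Astrocyte genes fell in 7 of 10 cases against GNPC and 5 against DBS, where 2 rose. Oligodendrocyte genes fell in 5 of 9 cases against GNPC and 2 against DBS, and endothelial genes in 3 and 2 of 7. The counts of 2 against DBS are near the 20.9% of all genes called lower there. By mean log2 value tumour 2 was the highest tumour for astrocyte and oligodendrocyte genes, and not for microglia or endothelial genes.

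**Figure D4:**
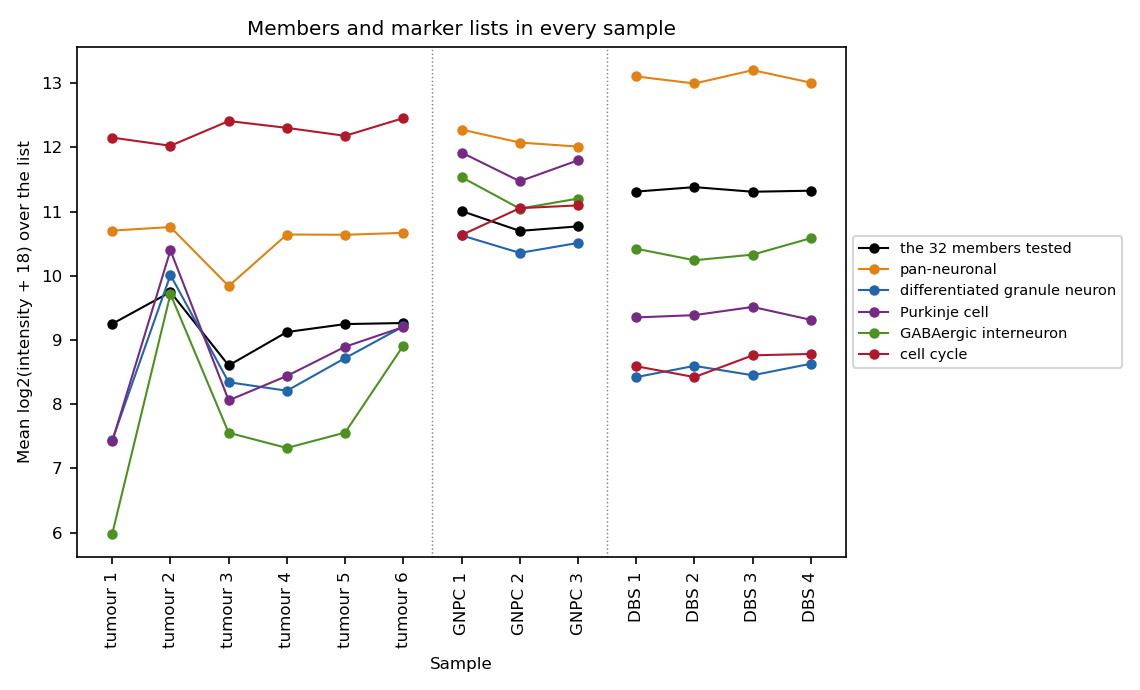
Points give the mean log2(intensity + 18) of each list in every sample, and lines only join the points of 1 group, whose samples have no order. The members (black) lie between 8.60 and 9.75 in tumours, 10.70 and 11.01 in GNPC and 11.31 and 11.38 in DBS, and tumour 2 is the highest tumour for the members and for all neuronal lists shown.

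RNA quality also differed. The mean log2 ratio of the 3' to 5' control probe sets of Gapdh and beta-actin was 1.39 ± 0.099 in tumours, 1.16 ± 0.045 in GNPC and 1.75 ± 0.497 in DBS (SD, n = 6, 3 and 4), with DBS 2 apart at 2.43. By exact two-sided permutation tests, tumours minus GNPC was 0.235 (p = 0.0119, the smallest that 84 relabellings allow, adjusted p = 0.0357 over 3 comparisons). Tumours minus DBS was -0.357 (exact p = 0.0952, adjusted 0.0952), and GNPC minus DBS was -0.592 (exact p = 0.0571, adjusted 0.0856). With this ratio as a covariate, an alternative chosen after seeing the data, 24 members were called lower against GNPC and 25 against DBS, and 5 were lower and 1 higher in GNPC against DBS.

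Probe sets of the same gene did not all give the same answer. Of the 71 member probe sets that passed the filter, 49 fell and 0 rose against GNPC, where 12.6% of all probe sets fell and 5.87% rose. Against DBS 48 fell and 0 rose (18.6% and 16.1% of all probe sets), and in GNPC against DBS 11 were lower and 5 higher (8.11% and 9.11%). Of 21 members with several passing probe sets, called and uncalled ones stood side by side in 7 against GNPC, 5 against DBS and 8 between the normal tissues. No member had probe sets called in opposite directions.

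Rab3a, Rab3c, Vamp2, Syt2 and Nsf gave conflicts. Nsf probe set 1457205_at put GNPC 0.45 ± 0.20 above DBS, not called, where the brighter 1422456_at put it 1.30 ± 0.17 below. The brighter Rab3a probe set, 1459980_x_at, of a type that can match several transcripts, gave the values above. The other, 1422589_at, was 213.1 to 817.9 in tumours (median 425.6), 2126, 1551.1 and 1982.6 in GNPC, and 1870.8, 1798.7, 1860 and 1997.1 in DBS. On it the tumours lay below all GNPC samples (-2.10 ± 0.29, adjusted p = 4.59e-05) and GNPC minus DBS was -0.01 ± 0.31, while the brighter one gave -1.69 ± 0.22 for GNPC minus DBS. Rab3c and Vamp2 had a bright probe set that fell in both comparisons and others that did not. Rab3c probe set 1449494_at differed by -0.10 ± 0.25 from GNPC and 0.55 ± 0.22 from DBS, while 1432415_at was called lower against GNPC (-1.23, adjusted p = 0.0448) and gave 0.10 against DBS. For GNPC minus DBS, 1432415_at was called higher (1.34, adjusted p = 0.0474), where the brightest, 1435047_at, gave -0.96, not called. The other Vamp2 probe set, 1420833_at, differed by -0.17 ± 0.26 and -0.23 ± 0.24. With the mean of a gene's probe sets, Vamp2 and Rab3c fell short of the 2-fold minimum in both tumour comparisons, at -0.85 and -0.95 for Vamp2 and -0.85 and -0.57 for Rab3c, and Rab3a passed against GNPC at -1.19.

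Syt2 probe set 1420418_at was 5.3 to 110.7 in tumours, 203.8 to 298.6 in GNPC and 50 to 85.9 in DBS. It put GNPC 1.71 ± 0.42 above DBS (adjusted p = 0.00484), where the brighter 1440323_at put it 1.05 ± 0.48 below, and it showed no called difference between tumours and DBS (-0.24 ± 0.36). For Pclo the direction was shared and the size was not: 1419392_at fell by 1.68 against DBS, and 1455373_at, at 116.6 to 304.7 in tumours and 2433.6 to 4114.5 in DBS, fell by 4.13. Which transcripts each probe set matches was not examined.

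**Figure D5:**
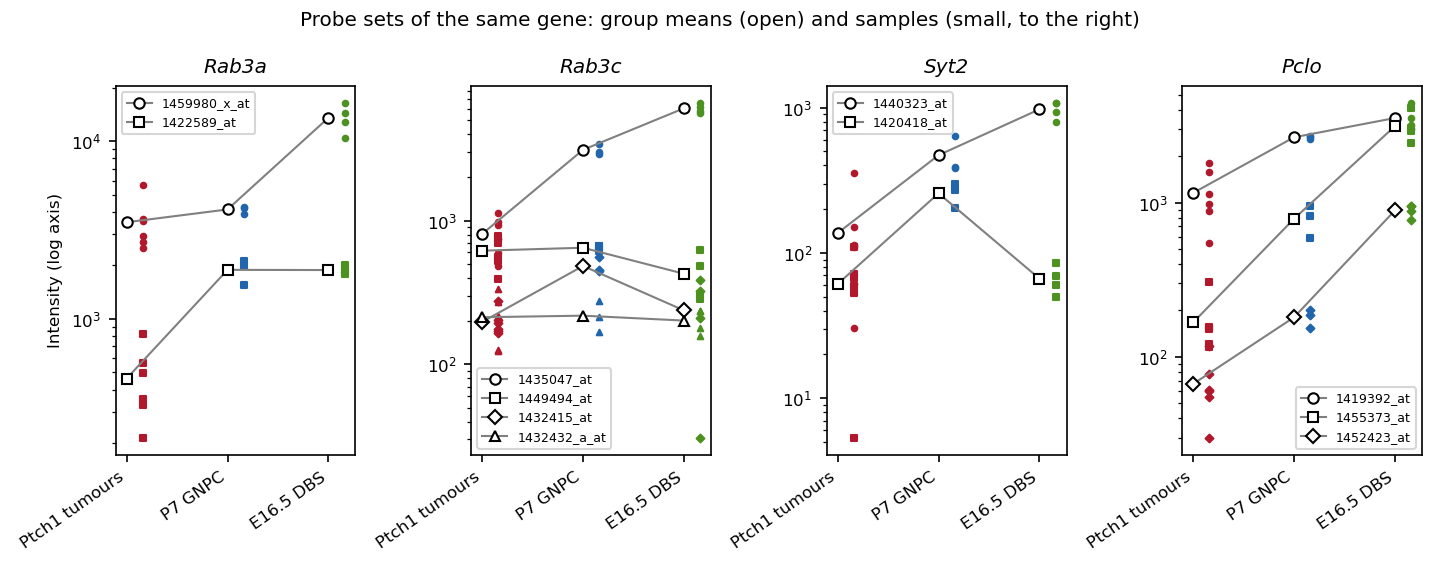
Each panel shows 1 gene on a log intensity axis, with tumours, GNPC and DBS from left to right; open symbols joined by lines are group means of each passing probe set, and small symbols to their right are samples. The lines of Rab3a and Syt2 take different courses between GNPC and DBS, and only 1 of the 4 Rab3c probe sets is far lower in the tumours than in DBS.

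A further list of 70 presynaptic genes, outside the 33 members, had 66 on the array and 62 tested. Against GNPC 31 fell, 4 rose and 27 were not called, with a median of -0.996, where 14.2% of all genes were called lower. Against DBS 36 fell, 3 rose and 23 were not called, with a median of -1.43, where 20.9% of all genes were called lower. In GNPC against DBS 15 were lower, 2 higher and 45 not called, with a median of -0.53, where 9.68% of all genes were lower and 8.73% higher. Slc32a1, the vesicular transporter for GABA and glycine, also a GABAergic marker, fell most in both tumour comparisons: it averaged 56.1 ± 70.5 in tumours, 1180 ± 217 in GNPC and 2992 ± 239 in DBS, differing by -4.53 ± 0.57 and -5.87 ± 0.52. Dnm3, a dynamin, differed by -2.94 ± 0.36 and -4.38 ± 0.33 and fell in both. Ppfia4, an active zone liprin, fell by 2.42 against GNPC, and Sncg, gamma-synuclein, fell by 4.48 against DBS.

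The 4 of 62 genes that rose against GNPC and the 3 of 62 against DBS stand beside 6.59% and 15.5% of all genes, so they are no more than the background. Cltb, a clathrin light chain, averaged 3602 ± 1165 in tumours, 1521 ± 213 in GNPC and 1162 ± 103 in DBS, and rose by 1.17 and 1.55. Vamp3, the SNARE of general membrane recycling, averaged 4028 ± 1669 in tumours, 1714 ± 118 in GNPC and 1464 ± 343 in DBS, and rose by 1.11 and 1.36. Snap23, the widespread relative of Snap25, rose by 1.12 against DBS and was 0.21 ± 0.18 above GNPC. Doc2a, a calcium sensor of spontaneous release, rose by 1.73 against GNPC and was 0.91 ± 0.28 below DBS. Syt13 rose by 1.02 against GNPC. Between the normal tissues, Sncg, Rab27b and Doc2a were the lowest in GNPC relative to DBS (-3.65, -2.85 and -2.65), and Cadps2, a priming factor of dense-core vesicles, and Itsn1, an endocytic scaffold, were higher (2.97 and 1.15).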

How the data were processed

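Total RNA of 13 samples was labelled by the Affymetrix two-cycle procedure, per the labels' protocols. The deposited values are linear intensities; the submitters' processing notes name MAS5, without a version. In the array of tumour 1, the mean of the middle values (2% cut at each end) is 500, as a global scaling by the authors would give. This mean was not computed for the other arrays. Detection calls were not used. Batch and scan day are not in the labels, and batch cannot be told apart from group. The genes and lists were chosen with earlier results of these data known, and those of the whole 33-gene set are all reported. Of the other presynaptic genes, the 3 called with the largest difference per comparison and direction are named; Syt13 was added after its value was seen, as 1 of 4 that rose.

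Of 45101 probe sets, 64 were controls, 34945 had 1 gene symbol, 932 several and 9160 none in the platform annotation. Each gene was read from its brightest probe set by mean, among those above the array's median in 3 or more arrays (12270 genes). The test used log2(value + 18), where 18 is the 20th percentile of all values, in 1 limma model with a mean per group over all samples (R 4.3.3, limma 3.58.1; lmFit, eBayes with trend; 10 residual and 4.5 prior degrees of freedom). Adjusted p-values are Benjamini-Hochberg over all genes tested. Samples come from different mice; groups follow the labels' source names, and sample numbers follow accession order. The fit was tested on simulated data. Alternatives were the pseudocount, filter, scaling, probe set choice, variance model, the 2 groups alone, each sample left out, and RNA quality as a covariate, the last added later. Promoters came from RefSeq (GRCm38.p6). Ctnnb1 tumours, which the series also describes, were not analysed here.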

Additional observations from a re-analysis of the deposited data

Results flagged for a closer look

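Among the 64 groups of tumour or DBS samples checked over 32 members, 10 held a sample whose gap to its nearest neighbour was unusually large. The gap was set against the group's range, at a limit that chance passes about 1 time in 20 for normally distributed values. The 64 groups share the same arrays and were checked on linear intensities, so the 10 cannot be set against that rate. All 10 were tumour groups. In 8 of them tumour 2 stood high. Its Syt7 intensity was 550.5, against 164.6 in the next tumour, and its Vamp1 intensity was 299.1, against 200.1. For Unc13c it was 1217.1, with 521.4 in the next tumour, and for Nsf 1643.5, with 1245.4. Syp was 725.7 (next 496.3), Rab3a 5658.7 (next 3641), Dnm1 801.4 (next 374.9) and Syt2 356.1 (next 151.2) in the same tumour. Tumour 3 stood low for the other two: Syt5 was 3.4, with 58.7 in the nearest tumour, and Unc13a was 27.8, with 105.8 in the nearest. Tumour 2 also had the highest mean log2 value among tumours of the Purkinje, GABAergic, granule neuron, pan-neuronal, astrocyte and oligodendrocyte markers. Whether these move the members was not tested.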

How the results depend on the processing

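The members called lower in tumours numbered 22 to 27 against GNPC and 23 to 26 against DBS under all settings, and none was called higher. With 1 sample left out in turn they were 23 to 26 against GNPC and 25 to 25 against DBS (0 to 0 higher in both), and 4 to 9 lower and 1 to 2 higher in GNPC against DBS. In that last comparison the main counts of 7 lower and 2 higher became 11 lower with arrays scaled to the same median, 11 in a fit of the 2 groups alone and 2 without _x_at, _s_at and _a_at probe sets, which left 29 members tested. They became 1 higher with the RNA quality covariate and 4 higher with each probe set tested by itself. With a common array median the middle gene shifted to 0.21 (-0.03 before) in tumours minus GNPC, 0.12 (0.00 before) in tumours minus DBS and -0.08 (0.04 before) in GNPC minus DBS. Then 1309 genes were higher and 1374 lower in tumours against GNPC (48.8% of calls higher, 31.7% before), and 850 higher and 1397 lower in GNPC against DBS (37.8%, 47.4% before). The sign of Cplx2 turned in tumours minus GNPC, which was 0.0707 at the same median and 0.0517 without the probe sets named. Signs also turned in GNPC minus DBS, where Syt2 was 0.33 (-1.05 on the brightest probe set) and Rab3c 0.28 (-0.96) with the mean of probe sets, Rims2 0.0219 after quantile normalization, and Amph 0.0129 with the covariate. With 1 sample left out in turn, Vamp2 ran between -0.2886 and 0.0852 (without GNPC 2), and Rims2 between -0.0621 and 0.0204 (positive without GNPC 2, DBS 3 or DBS 4). The cause of these changes was not tested. No paired analysis was possible, because any 2 groups differ in genotype or age and no mouse could give samples to both. The number of arrays and the dimness of Syt5, Unc13a and Sv2c in tumours limit precision, and depth is not defined for arrays.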
